A study of Homo sapiens with 2 samples.

Results

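The cells described here were the SP11-treated cells with the highest share of RNA from 7 interferon-stimulated genes. They were chosen by measured values: in the SP11 library, barcodes with at least 200 genes, at most 20% mitochondrial counts and at least 4400 unique molecular identifiers (UMIs, counts of distinct captured RNA molecules) were ranked by the share of their UMIs from ISG15, IFIT1, IFIT2, IFIT3, IFI6, MX1 and CXCL10, and the top 10% were selected. This gave 77 cells, called members, of 769 SP11 cells used and of 1940 barcodes in both libraries. The remaining 692 SP11 cells are called the rest. The study profiled cells that the labels name MOLT4, a long-cultured T-cell leukemia line, on the 10x Genomics platform, with 1 untreated library (Control) and 1 library treated with SP11, an HSP90 inhibitor, at 0.8 µM for 48 h. The treatment label gives 48 h for the untreated library as well. With 1 library per group and all members from 1 culture, no test of a difference was possible, no p-value is given, and intervals (95%) cover counting error only.

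Type I interferons bind a receptor on the cell surface and activate the kinases JAK1 and TYK2. A complex that includes STAT2 and IRF9 then switches on many genes through a DNA element built of paired GAAA units. ISG15 encodes a ubiquitin-like modifier, IFI6 a small membrane protein that limits viral replication, IFIT1, IFIT2 and IFIT3 proteins that bind foreign RNA, MX1 a dynamin-like GTPase that blocks viruses, and CXCL10 a chemokine that draws activated T cells. Many cell types keep a low level of such transcripts without an added interferon.

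The DNA upstream of the start of transcription is shown for 5 of the rule genes and for PLSCR1, a higher interferon-stimulated gene outside the rule that holds the element, because this is where the interferon response element lies in such genes. Sequences are the 250 bases before the RefSeq start on GRCh38.p14, written 5′ to 3′ along the gene, and capitals mark each match to GAAANNGAAA or to TTTCNNTTTC, its reverse complement, with overlapping matches merged.
ISG15 (chr1:1013247-1013496, plus strand): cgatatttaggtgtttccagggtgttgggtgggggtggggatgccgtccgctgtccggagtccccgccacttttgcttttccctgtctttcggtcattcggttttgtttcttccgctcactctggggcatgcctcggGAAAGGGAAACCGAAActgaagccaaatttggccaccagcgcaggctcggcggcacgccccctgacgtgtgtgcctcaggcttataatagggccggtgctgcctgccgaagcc
IFI6 (chr1:27672193-27672442, minus strand): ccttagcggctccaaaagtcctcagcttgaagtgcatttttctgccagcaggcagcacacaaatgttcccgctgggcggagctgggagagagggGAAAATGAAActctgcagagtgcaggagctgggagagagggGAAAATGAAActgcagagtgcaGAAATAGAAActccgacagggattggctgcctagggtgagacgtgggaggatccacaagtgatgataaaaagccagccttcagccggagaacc
IFIT1 (chr10:89392373-89392622, plus strand): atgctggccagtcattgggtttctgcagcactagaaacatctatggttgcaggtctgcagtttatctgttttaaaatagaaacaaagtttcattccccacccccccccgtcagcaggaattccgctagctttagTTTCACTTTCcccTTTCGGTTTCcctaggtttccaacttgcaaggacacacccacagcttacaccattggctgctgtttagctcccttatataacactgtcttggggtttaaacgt
IFIT3 (chr10:89327747-89327996, plus strand): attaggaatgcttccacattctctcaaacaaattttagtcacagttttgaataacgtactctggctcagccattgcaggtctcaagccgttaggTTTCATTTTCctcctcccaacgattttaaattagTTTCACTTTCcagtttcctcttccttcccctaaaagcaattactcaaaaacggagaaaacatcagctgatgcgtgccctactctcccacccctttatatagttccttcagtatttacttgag
CXCL10 (chr4:76023498-76023747, minus strand): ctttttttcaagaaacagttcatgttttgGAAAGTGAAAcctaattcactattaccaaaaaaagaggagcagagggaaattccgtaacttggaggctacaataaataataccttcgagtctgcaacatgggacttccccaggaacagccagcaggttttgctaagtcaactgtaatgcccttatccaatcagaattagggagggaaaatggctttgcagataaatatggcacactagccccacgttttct
PLSCR1 (chr3:146544608-146544857, minus strand): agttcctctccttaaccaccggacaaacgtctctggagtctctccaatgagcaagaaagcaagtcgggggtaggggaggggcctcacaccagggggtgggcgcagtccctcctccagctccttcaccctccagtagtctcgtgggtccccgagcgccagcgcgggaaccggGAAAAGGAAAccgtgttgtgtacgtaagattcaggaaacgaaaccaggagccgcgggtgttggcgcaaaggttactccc
ISG15 held 2 overlapping matches, IFI6 held 3, IFIT1 and IFIT3 held 2 each, and CXCL10 and PLSCR1 held 1 each. In windows from 250 bases before to 50 bases after a start, all 6 rule genes found in the table (IFIT2 was not in it) held a match on either strand, as did 4.38% of 27305 genes. Among interferon-stimulated genes outside the rule, 29 of the 47 found held it, and of those measured 7 of 16. SP110 and IFI16, which had the highest ratios among these, held no match, and EIF2AK2 held none before the start. Of genes at least 1.5-fold higher in members, described below, 11 of 124 (8.87%) held it, against 3.71% of 4933 measured genes, and of the 10 genes with the highest ratios none of the 7 found did. A match is a description of letters and does not mark a bound site.

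The SP11 cells used had a median of 11222 UMIs and the control cells used 18250. A total of 114 barcodes occurred in both libraries, and 10 members carried such a barcode. The label was checked against 20 T-lineage markers (among them CD3D, CD3E, CD7, LCK and TRBC1), of which 13 were at 0 in every SP11 cell used. Their summed level was 8.44 CPM (counts scaled to 1000000 UMIs of the cells summed) in the members, from 8 UMIs, and 2.03 CPM in the rest, from 17 UMIs. The T-cell identity in the label was therefore not visible in members or rest, and no other cell type is assigned. Members had a median of 11779 UMIs (range 4896 to 36589) against 11135 in the rest, and a median mitochondrial share of 5.58% against 5.63%. Scrublet, a caller of doublets, marked 2 of the 77 members and 19 of the rest, and all were kept.

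The values that chose the members came mostly from IFI6 and ISG15 and are given here as a description. Members held 665 marker UMIs in all, or 702 CPM, and the rest held 720, or 86.1 CPM. A member had between 2 and 123 marker UMIs, with a median of 6, whereas a cell of the rest had a median of 1, and 282 of the rest had 0. IFI6 gave 317 of the member UMIs and ISG15 gave 243, so that 47.7% and 36.5% of the score came from these genes. Every member had a UMI of ISG15 or IFI6, and 56 had both. IFIT3 gave 45 UMIs, CXCL10 44, IFIT1 11, IFIT2 4 and MX1 1. Only 20 members, and 44 cells of the rest, had a UMI of any of these 5 genes. IFI6 was the most abundant marker in 46 members, ISG15 in 21 and CXCL10 in 1, with 9 tied. There was no gap in the score at the threshold: the last cells inside had 321, 320 and 320 CPM from 5, 2 and 5 UMIs, and the first cells outside had 316, 307 and 300.1 CPM from 5, 9 and 3 UMIs.

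**Figure D1:**
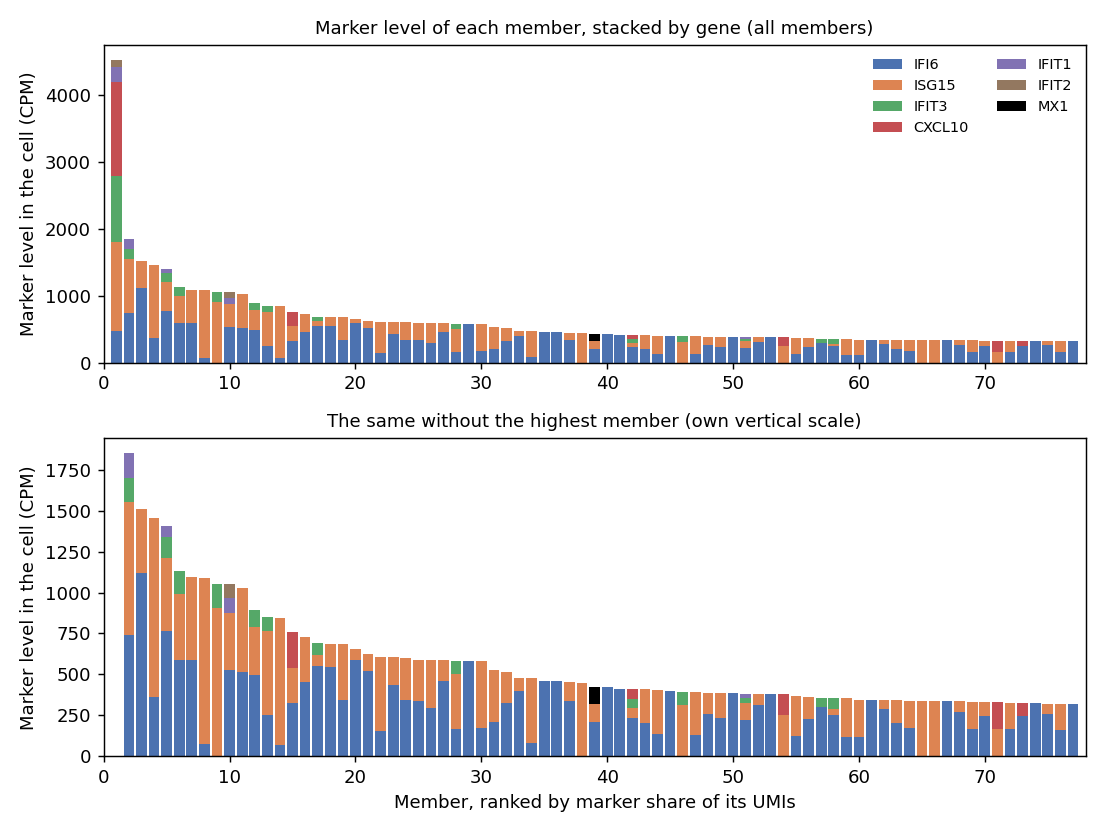
Marker level of each of the 77 members, in CPM of the cell's own UMIs, ranked by total and stacked by gene; the lower panel leaves out the highest member and has its own scale. The highest member reached 4524 CPM with large CXCL10 and IFIT3 parts. Of the others, 57 consisted of IFI6 and ISG15 alone, down to 320 CPM.

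One member stood apart from the others. It held 123 marker UMIs of its 27186 UMIs: 36 of ISG15, 13 of IFI6, 27 of IFIT3, 38 of CXCL10, 6 of IFIT1 and 3 of IFIT2. This cell thus gave 27 of the 45 IFIT3 UMIs and 38 of the 44 CXCL10 UMIs of all members. Outside the rule it had 24 UMIs of IFI16 and 7 of OAS3, and also 186 of S100A8 and 23 of TDO2. The next member by score had 25 marker UMIs in 13512, with 11 of ISG15, 10 of IFI6, 2 of IFIT1 and 2 of IFIT3. The member after it had 20 UMIs of IFI6 and 7 of ISG15 but none of the other markers, and 115 UMIs of TDO2.

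To ask whether the markers occurred together in cells, each gene was left out in turn, cells were ranked by the other 6, and the left-out gene was read in the new top 77. ISG15 had 169 CPM there and 48.0 CPM in the other cells, and the log2 ratio was 1.82 (1.55 to 2.08). IFI6 had 192 and 59.5 CPM, and its log2 ratio was 1.69 (1.43 to 1.95). Either gene was thus higher in cells ranked without it. IFIT3 had a log2 ratio of 4.07 (3.30 to 4.89), from 42 and 22 UMIs, and CXCL10 4.13 (3.33 to 4.98), from 41 and 20. Without the 1 cell with most of its UMIs, IFIT3 had 2.63 (1.58 to 3.64) and CXCL10 0.40 (-1.99 to 2.16), so the interval of CXCL10 then included 0. IFIT1 had 11 UMIs in the top 77 and 3 elsewhere, a log2 ratio of 5.02 (3.10 to 7.50), and 3.92 (1.56 to 6.61) without the cell with most of its UMIs. IFIT2, with 4 and 1 UMIs, had 5.14 (1.80 to 10.8), and 3.18 (-3.11 to 9.48) without that cell. MX1, with 1 and 6, had 0.56 (-4.97 to 3.60). Ranked without ISG15, 56 of the top 77 were members, and ranked without IFI6, 43 were. When every cell was first thinned to 4400 UMIs, 46 of the top 77 were members.

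Genes outside the rule were compared by their summed UMIs. Of genes with at least 200 UMIs in the SP11 cells used, 6001 were measured; 167 (2.78%) exceeded the rest by 1.5-fold or more in members and 243 (4.05%) were below it by as much, a size and not a call of significance. The median log2 ratio over these genes was -0.06.

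Interferon-stimulated genes that the rule did not use were higher in members as a group. Of 61 such genes, 21 were measured, and 5 were at least 1.5-fold higher while none was 1.5-fold lower, beside the 2.78% above. Their median log2 ratio was 0.38 and 20 of the 21 were above 0. Summed over all 61 genes the level was 2413 CPM in members and 1698 CPM in the rest, a log2 ratio of 0.51 (0.44 to 0.57). Per cell the median was 2018 CPM in members and 1680 CPM in the rest, so the median cell differed in the same direction. They included SP110, IFI16, PLSCR1 and EIF2AK2. SP110, a nuclear body protein, had 51.7 CPM in members and 26.7 CPM in the rest, a log2 ratio of 0.96 (0.48 to 1.41). IFI16, a sensor of DNA, had 192 and 102 CPM, a ratio of 0.91 (0.68 to 1.15) on the log2 scale. PLSCR1, a phospholipid scramblase with an antiviral role, had 39.0 and 20.8 CPM (log2 ratio 0.91, 0.36 to 1.43). EIF2AK2, which encodes the kinase PKR that halts translation when it binds double-stranded RNA, had 93.9 and 57.7 CPM (log2 ratio 0.70, 0.36 to 1.03), and 0.57, under 1.5-fold, without the cell with most of its UMIs.

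Other members of the group differed less. BST2, which tethers virus particles to the cell surface, had 283 CPM in members and 190 CPM in the rest, a log2 ratio of 0.57 (0.38 to 0.76). RNF213, a large ubiquitin ligase, followed with 0.51 (0.20 to 0.80), and TRIM25, a ligase that acts on RIG-I, with 0.49 (-0.08 to 1.03). PHF11 (0.43), MX2 (0.38), UBE2L6 (0.38), ADAR (0.36) and HERC5 (0.35) lay between. UBE2L6 and HERC5 are the enzymes that attach ISG15 to proteins, and their intervals (-0.06 to 0.78 and -0.27 to 0.92) included 0. IFITM2 (0.06, -0.17 to 0.28) and TRIM14 (-0.07, -0.49 to 0.32) had nearly the same level in members and rest.

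**Figure D2:**
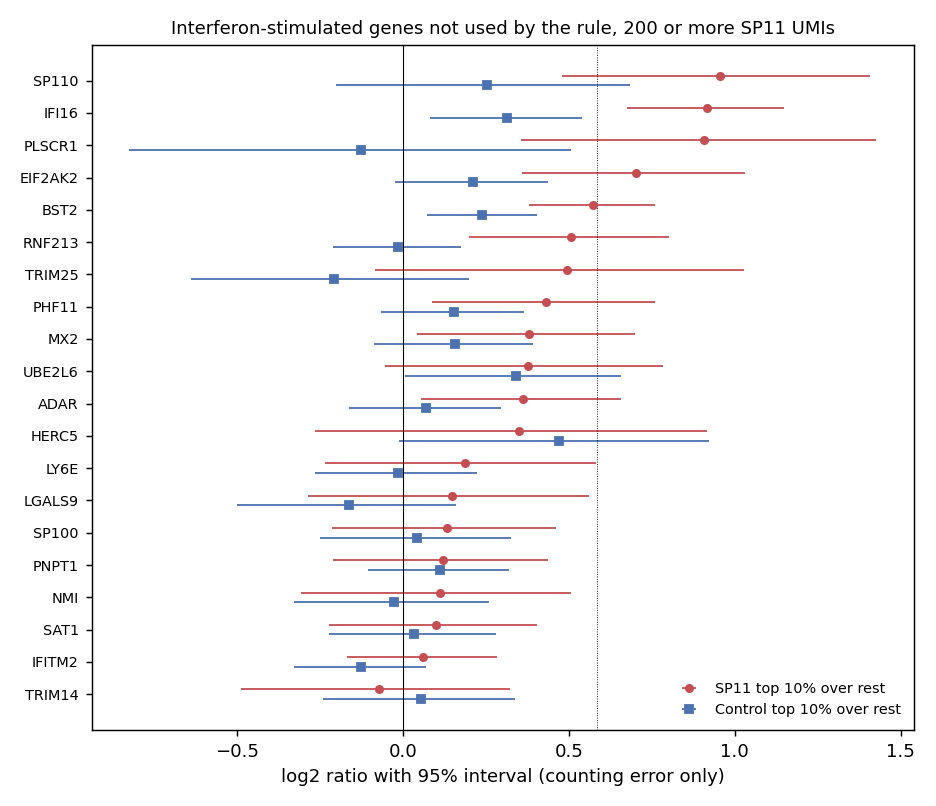
Log2 ratio of the top 10% over the rest for 20 of the 21 measured interferon-stimulated genes outside the rule, in SP11 (circles) and Control (squares), with 95% intervals for counting error. In SP11, 19 of the 20 plotted genes lie above 0 and 4 pass the dotted 1.5-fold line, beside 2.78% of all measured genes. In Control none passes it, which is near the 0.937% of all measured genes there. The top 10% starts at 320 CPM of markers in SP11 and at 144 CPM in Control.

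Less abundant interferon-stimulated genes had larger ratios. The 10 genes with at least 50 but under 200 UMIs held 234 UMIs in members and 965 in the rest, a log2 ratio of 1.10 (0.89 to 1.31). Of the 10, 9 were at least 1.5-fold higher, beside 6.02% of all genes with at least 50 UMIs. The share among all genes of 50 to under 200 UMIs was not taken and is above 6.02%, since genes with at least 200 had 2.78%. The genes named here were chosen after their values were seen. SAMD9, a restriction factor for poxviruses, had 37 UMIs in members and 85 in the rest, a log2 ratio of 1.94 (1.34 to 2.52). PARP9 and DTX3L, which form a complex with ubiquitin ligase activity, had 1.87 (1.09 to 2.62) and 1.04 (0.41 to 1.62). OAS3, which makes the messenger that activates RNase L, had 1.27 (0.59 to 1.91), with 7 of its member UMIs in the highest member. STAT2, which helps carry the interferon signal to DNA, had 0.94 (0.21 to 1.62). The 30 genes with fewer than 50 UMIs held 118 UMIs in members and 334 in the rest (log2 ratio 1.64, 1.33 to 1.95), and 5 of them had none. OASL, with 8 and 4 UMIs, and SAMD9L, with 16 and 18, are examples, while RSAD2 had 3 and 7. At such counts single genes could not be ranked. The summed ratios of the less abundant genes were not taken without the highest member.

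Interferon genes themselves were not detected. All 11 in the list, among them IFNB1, IFNA1, IFNL1 and IFNG, had 0 UMIs in both libraries, which allows up to 0.322 CPM each in the SP11 cells used. Receptor and kinase transcripts differed little between members and rest. IFNAR1 had 79.1 and 67.9 CPM (log2 ratio 0.22, -0.15 to 0.57), IFNAR2 had 70.7 and 68.1 CPM (0.05, -0.33 to 0.42), TYK2 had 0.05 (-0.54 to 0.60) and JAK1 had -0.27 (-0.60 to 0.05). IFNGR1, the ligand-binding chain of the interferon gamma receptor, was the exception in its list, with 33.8 and 20.7 CPM and a log2 ratio of 0.71 (0.12 to 1.26). IL10RB, shared by the interferon lambda and interleukin 10 receptors, had 0.39 (0.10 to 0.67).

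Of the nucleic acid sensing list, 9 genes were measured, 1 of them at least 1.5-fold higher (beside 2.78% of all), with a median log2 ratio of 0.13. That gene was IFIH1, which encodes the RNA sensor MDA5 and is itself interferon-stimulated, with 53.8 and 31.8 CPM (log2 ratio 0.76, 0.30 to 1.20), and 0.52 without the cell with most of its UMIs. DDX58, which encodes the related sensor RIG-I, fell under 200 UMIs, with 21 UMIs in members and 38 in the rest (log2 ratio 2.29, 1.44 to 3.09), and 9 of the 21 came from 1 cell. CGAS, at -0.02 (-0.59 to 0.51), TBK1, at 0.13 (-0.49 to 0.70), and IRF3, at 0.13 (-0.35 to 0.58), had ratios close to 0. MAVS, the mitochondrial adaptor of both RNA sensors, had 60.1 CPM in members and 82.3 CPM in the rest, a log2 ratio of -0.45 (-0.87 to -0.06).

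Antigen presentation genes were also higher in members, in part. Of 14 measured, 4 were at least 1.5-fold higher and 1 lower, beside 2.78% and 4.05% of all genes, with a median log2 ratio of 0.41. HLA-B, a class I heavy chain, had 510 and 263 CPM (log2 ratio 0.96, 0.81 to 1.10). ICAM1, an adhesion molecule, had 84.4 and 40.4 CPM (1.06, 0.69 to 1.42). B2M, the light chain of class I, had 1363 and 884 CPM (0.63, 0.54 to 0.71), and HLA-E had 0.75 (0.38 to 1.11). PSMB8, a subunit of the immunoproteasome, had 78.1 and 77.2 CPM (0.02, -0.35 to 0.36). CD74, the class II invariant chain, was lower, with 15.8 and 25.0 CPM (-0.66, -1.52 to 0.10).

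Among measured genes outside the rule, the largest differences were not in interferon-stimulated genes, although DDX58, SAMD9 and PARP9, below 200 UMIs, had ratios of like size. The 10 highest ratios among measured genes with at least 50 UMIs in members included those of TDO2, S100A8, S100A9, TYROBP, MMP1, FUCA1, SAMSN1, HMOX1 and CHI3L1. S100A8 and S100A9, which pair to form calprotectin in myeloid cells, had 926 and 577 CPM in members and 133 and 85.9 CPM in the rest, log2 ratios of 2.80 (2.67 to 2.93) and 2.75 (2.58 to 2.91). TYROBP, a signalling adaptor of myeloid and natural killer cells, had 347 and 56.5 CPM (log2 ratio 2.62, 2.41 to 2.82). TDO2, which degrades tryptophan, had the highest ratio, 307 CPM against 16.9 CPM (4.19, 3.89 to 4.49). However, 115 of its 291 member UMIs came from 1 cell, without which the log2 ratio was 3.49. Only 9 of the 77 members and 18 cells of the rest had a TDO2 UMI. S100A8 was found in 42 members and 195 cells of the rest, S100A9 in 37 and 219, and TYROBP in 45 and 263. Without the cell with most UMIs of each, S100A8 had 2.50 and TYROBP 2.30. MMP1, a collagenase, had 282 and 73.7 CPM (1.93, 1.72 to 2.14), although the cell with most of its UMIs, 158, was in the rest. HMOX1, which degrades heme, had 1.56 (1.08 to 2.01) and 0.50 without the cell with most of its UMIs.

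Lists of macrophage-associated genes and S100 genes were also higher in members. They are not separate evidence, since they hold TDO2, MMP1, S100A8 and S100A9 and were chosen with earlier results of these data known. Of 25 macrophage-associated genes, 7 were measured and 6 were at least 1.5-fold higher (beside 2.78% of all), with a median log2 ratio of 1.34 and a summed level of 5167 CPM in members and 2732 CPM in the rest. LYZ, lysozyme, had 1599 and 633 CPM (1.34, 1.25 to 1.42). CTSB had 366 and 207 CPM (0.82, 0.65 to 0.99) and CTSD, the most abundant of these lysosomal proteases, 1973 and 1586 CPM (0.31, 0.24 to 0.38). Of 8 S100 genes, 7 were measured and 5 were at least 1.5-fold higher (again beside 2.78%), with a median of 0.67 and a sum of 7016 against 3621 CPM. S100A4 had 1.09 (1.00 to 1.17), S100P 0.54 (0.38 to 0.69) and S100A11 0.45 (0.37 to 0.53). Per cell, the medians of the macrophage-associated sum were 3546 and 2520 CPM and those of the S100 sum 4377 and 3100 CPM. Genes of granule proteases did not share this, since ELANE had 407 and 485 CPM (-0.25, -0.41 to -0.10) and the sum of the list a log2 ratio of -0.09 (-0.14 to -0.03), although CFD had 1.18 (0.81 to 1.53).

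**Figure D3:**
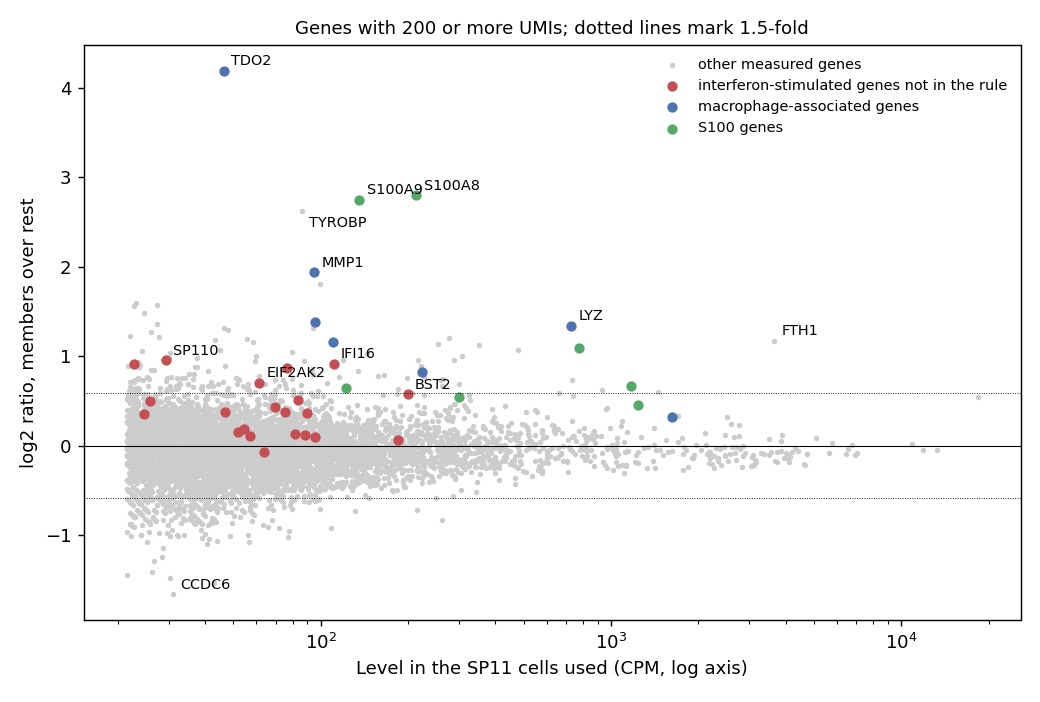
Log2 ratio of members over rest against the level in the SP11 cells used (CPM, log axis) for the 6001 measured genes, 1 point each, with 3 lists coloured. TDO2, S100A8, S100A9 and TYROBP stand between 2.62 and 4.19, above all interferon-stimulated genes outside the rule, of which the highest, SP110, lies at 0.96.

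Iron and oxidative stress genes and some inflammatory genes were higher as well. FTH1, the ferritin heavy chain, had 7294 and 3243 CPM (log2 ratio 1.17, 1.13 to 1.21). Of 14 measured genes of the NRF2 and iron list, FTH1, HMOX1, NQO1 (0.67, 0.38 to 0.95) and SLC7A11 (0.73, 0.41 to 1.04) were the 4 at least 1.5-fold higher, beside 2.78% of all, and the median of the list was 0.17. Without the cell with most of its UMIs, NQO1 had 0.45 and SLC7A11 had 0.53, both under 1.5-fold. FTL, the ferritin light chain and the most abundant of them, had 25544 and 17578 CPM (0.54, 0.52 to 0.56). MT1X, a metallothionein, had -0.35 (-0.59 to -0.12). Of 11 measured NF-kB targets 3 were at least 1.5-fold higher (beside 2.78%), namely TNFAIP2 (0.66, 0.11 to 1.18), SOD2 (370 and 207 CPM, 0.84, 0.67 to 1.00) and CXCL8 (98.1 and 57.3 CPM, 0.78, 0.44 to 1.10), while NFKB1 had -0.32 (-0.72 to 0.07) and the median of the list was 0.09. SOD2 had 0.52 and CXCL8 0.48, both under 1.5-fold, without the cell with most UMIs of each. CCL2, a monocyte chemokine, had 377 and 204 CPM (0.89, 0.72 to 1.05), whereas CCL5 had 0.14 (-0.25 to 0.51). BCL2A1, a survival gene, had 0.75 (0.57 to 0.93), and BCL2 had 23.2 and 42.9 CPM (-0.89, -1.58 to -0.27).

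The genes with the lowest ratios had few UMIs. The lowest ratios were those of CCDC6 (10.5 CPM in members, 33.3 CPM in the rest, -1.66, -2.74 to -0.76), INTS13 (-1.53), INIP (-1.48), LINC02245 (-1.44), ZNF654 (-1.41), RCL1 (-1.29), NOL12 (-1.25), PEMT (-1.15), INSR (-1.10) and URB1 (-1.07). INTS13 is a subunit of the Integrator complex that ends transcription of small nuclear RNAs, and INSR is the insulin receptor. Each had between 8 and 27 UMIs in members. Some lists lay below 0: the median log2 ratio was -0.28 for 17 MYC targets and ribosome biogenesis genes, -0.39 for 9 cholesterol synthesis genes and -0.16 for 17 heat shock genes, beside -0.06 over all genes. Of the 9 cholesterol synthesis genes, 2 were at least 1.5-fold lower, beside 4.05% of all genes. MYC had 58.0 and 85.9 CPM (-0.57, -0.99 to -0.17), and FBL, the nucleolar methyltransferase fibrillarin, 222 and 313 CPM (-0.50, -0.71 to -0.29). The 25 measured G2M genes had a median of -0.19, with CDC20 at -0.50 (-0.77 to -0.23). Replication-dependent histone genes differed from this, since 4 of 5 were at least 1.5-fold higher (beside 2.78%), with a median of 0.71. HIST1H4C had 2104 and 1385 CPM (0.60, 0.53 to 0.67), but 290 of its 1994 member UMIs were in 1 cell, the per-cell median of the list was 442 CPM in members and 472 CPM in the rest, and in the top 5% of cells HIST1H4C had a log2 ratio of -0.13.

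Since markers of macrophages moved with the score, members were also compared within strata of cells. Of the 77 members, 26 were in the top 10% of cells by the macrophage-associated sum, 23 in that by the S100 sum and 23 in that by the sum of interferon-stimulated genes outside the rule. By macrophage-associated and S100 genes together, 29 members (37.7%) lay in the top 10% and 48 outside it. Outside, 75 of 5656 measured genes (1.33%) were at least 1.5-fold higher in the 48 members than in the other 644 cells. Interferon-stimulated genes outside the rule still had 2197 CPM in these members and 1677 CPM in the other cells, a log2 ratio of 0.39 (0.30 to 0.48), with 4 of 20 at least 1.5-fold higher and a median of 0.34. The 4 were EIF2AK2 (0.91), TRIM25 (0.74), PHF11 (0.63) and IFI16 (0.60). SP110 had 0.55, and PLSCR1, with 21 and 150 UMIs under the minimum of 200 here, had 1.06. The macrophage-associated sum had 0.24 (0.17 to 0.32), the S100 sum 0.13 (0.06 to 0.20), the iron and NRF2 sum 0.05 (0.03 to 0.08) and the antigen presentation sum 0.20 (0.12 to 0.28), with none of its 14 measured genes at least 1.5-fold higher. The macrophage-associated and S100 sums defined the strata, so that their ratios within a stratum are narrowed by the split itself. TDO2 had only 1 and 21 UMIs there, TYROBP was at 0.14, S100A9 at 0.34 and FTH1 at 0.02, while S100A8 kept 1.62 from 62 and 300 UMIs. Histone genes had 0.84 (0.76 to 0.92) in this stratum. Lists that lay below 0 among all cells lay closer to 0 here: the MYC and ribosome biogenesis sum had -0.03 (-0.09 to 0.02), the cholesterol synthesis sum -0.09 (-0.26 to 0.08) and the heat shock list a median of 0.01. The G2M sum turned to 0.16 (0.09 to 0.22).

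Inside the top 10% by macrophage-associated and S100 genes, 29 members were set beside 48 other cells. There 735 genes were measured, and 19 (2.59%) were at least 1.5-fold higher in members. The sum of interferon-stimulated genes outside the rule was 2674 and 1952 CPM, a log2 ratio of 0.45 (0.34 to 0.57). TDO2 had 1.84, TYROBP 1.72, TIMP1 1.06 and HLA-B 0.87, and the macrophage-associated sum had 0.44 (0.37 to 0.51). The log2 ratios of the interferon-stimulated sum outside and inside had overlapping intervals. The iron and NRF2 sum had 0.08 (0.06 to 0.11) inside, and the NF-kB sum had -0.03 (-0.20 to 0.14) inside and 0.15 (-0.01 to 0.30) outside. Histone genes had the opposite sign inside, with -0.16 (-0.28 to -0.03), and so had the G2M sum, with -0.26 (-0.38 to -0.14), while the MYC and ribosome biogenesis sum had -0.21 (-0.30 to -0.12). What part the macrophage-associated transcripts have in the ranking was not tested.

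**Figure D4:**
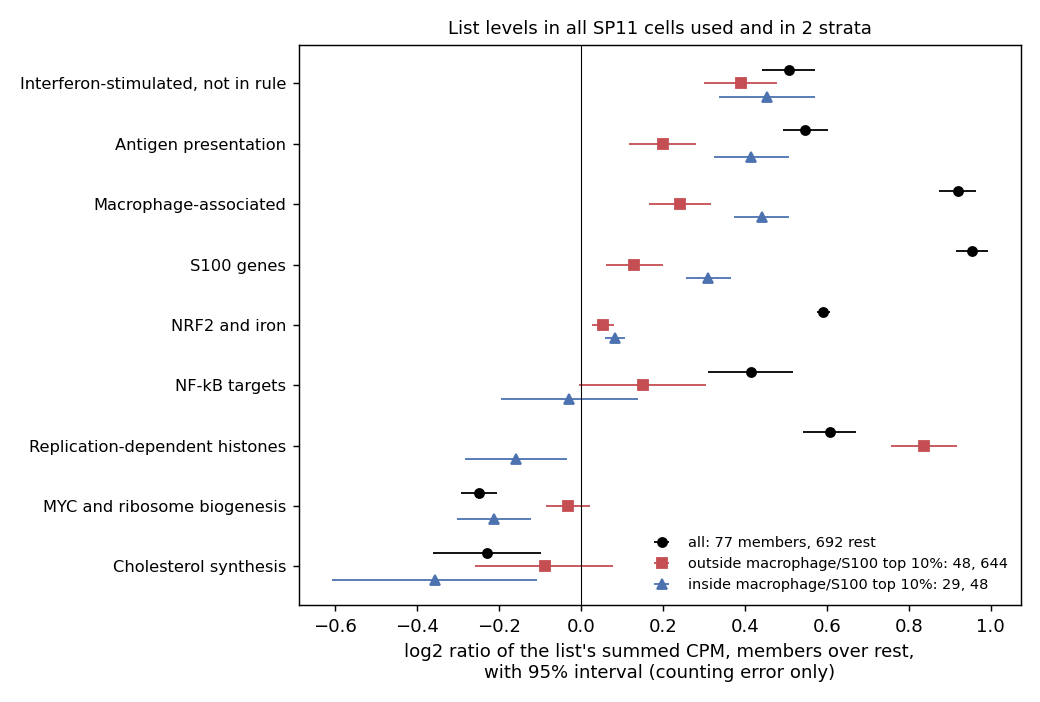
Log2 ratio of the summed level of 9 gene lists, members over rest, with 95% intervals for counting error, in all SP11 cells used (circles) and outside (squares) or inside (triangles) the top 10% of cells by macrophage-associated and S100 genes. The interferon-stimulated list lies at 0.51, 0.39 and 0.45, and the S100 list, which with the macrophage-associated list defined the strata and is narrowed by them, at 0.95, 0.13 and 0.31.

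Members were also split by the scarcer markers of the rule, which is a description. In the 20 with a UMI of IFIT1, IFIT2, IFIT3, MX1 or CXCL10, interferon-stimulated genes outside the rule reached 3001 CPM, a log2 ratio of 0.82 (0.72 to 0.92) over the rest. Without the member with the highest score, which was among the 20, the log2 ratio was 0.58 (0.47 to 0.69). In the 57 without, these genes had 2139 CPM and a log2 ratio of 0.33 (0.25 to 0.41). The medians over 20 measured genes were 0.57 and 0.25. EIF2AK2 had log2 ratios of 1.13 and 0.45 in these sets. The macrophage-associated sum was alike in both, with log2 ratios of 0.91 (0.83 to 0.98) and 0.93 (0.87 to 0.98). The S100 sum was not, with 1.18 (1.12 to 1.24) in the 20 and 0.84 (0.79 to 0.88) in the 57. MX1, IFIT and CXCL10 counts are part of the rule, so these sets were chosen by it.

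Along the whole ranking of SP11 cells, the interferon-stimulated sum outside the rule was highest in the first 10%, with the next 10% between it and the others. It was 2413 CPM in the first 10% of cells, 1849 CPM in the next 10%, and between 1625 and 1711 CPM in the others. Cells with no marker UMI, which fill the last part of the ranking, have no order among themselves. Macrophage-associated genes gave 5167, 3661 and 2347 to 2837 CPM, and S100 genes 7016, 4748 and 3144 to 3901 CPM. MYC and ribosome biogenesis genes ran the other way, with 4697 CPM in the first 10%, 5197 CPM in the next and 5467 to 5866 CPM in the others.

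**Figure D5:**
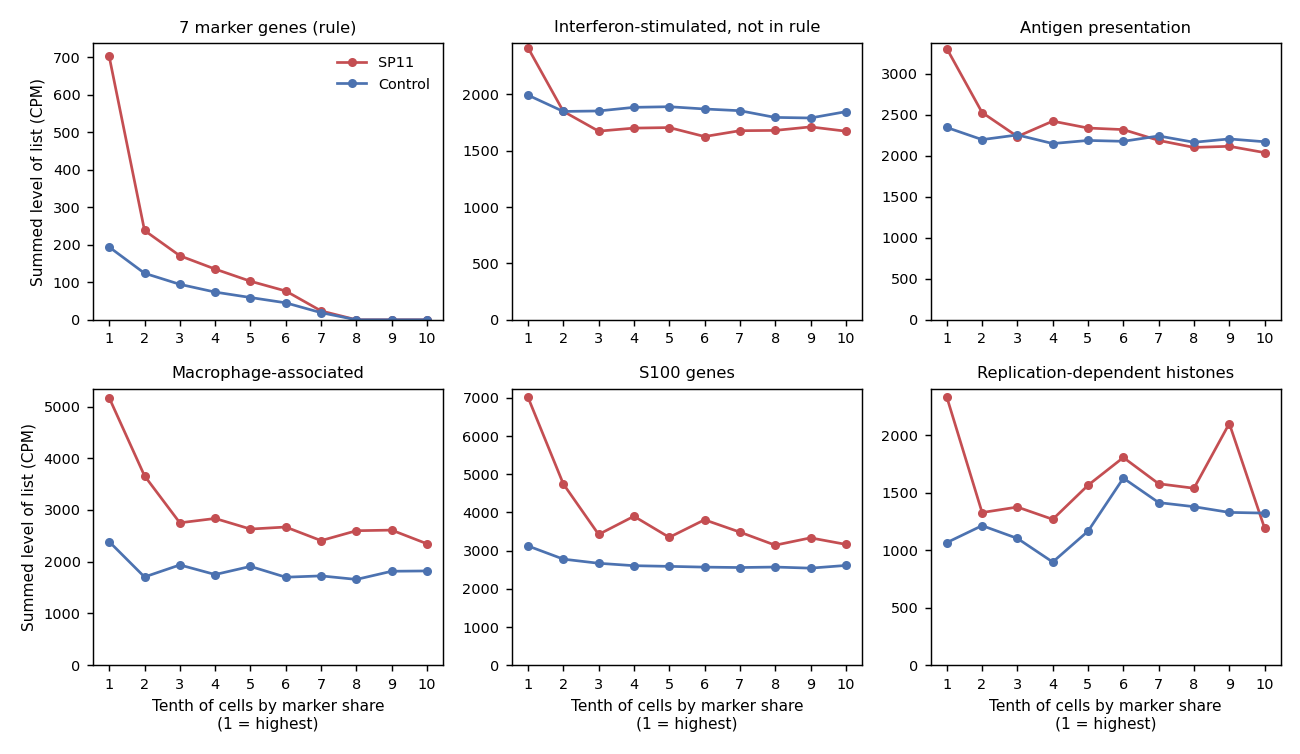
Summed level (CPM) of 6 gene lists in each successive 10% of cells ranked by marker share, from the highest (1) to the lowest (10), in SP11 and Control. In SP11 the interferon-stimulated list outside the rule is at 2413 CPM in the first 10% and at or below 1849 CPM in all others, and in Control it runs from 1993 to 1790 CPM.

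The same markers, summed, were scarcer in untreated cells. All marker genes together had 60.1 CPM in the control cells used and 149 CPM in the SP11 cells used, with ISG15 at 33.5 and 60.9 CPM, IFI6 at 21.3 and 71.6 CPM, IFIT3 at 2.02 and 6.87 CPM and CXCL10 at 0.52 and 6.55 CPM. In SP11, 1 cell held 38 of the 44 CXCL10 UMIs of all members, and the rest held 17, so the CXCL10 level rests largely on that cell. The same cell held 27 of the 45 IFIT3 UMIs of all members, and the rest held 19, so the IFIT3 level rests on it in part. MX1 went the other way, with 1.92 and 0.75 CPM. The member threshold of 320 CPM is the lowest score in the SP11 top 10%, so the SP11 share of 10.0% was fixed by the rule. That threshold was reached by 6 of 963 control cells (0.623%, exact binomial interval 0.229% to 1.35%). Because control cells were deeper, every cell was also thinned to 4400 UMIs. At least 2 marker UMIs were then present in 28 control cells (2.91%, 1.94% to 4.17%) and 82 SP11 cells (10.7%, 8.57% to 13.1%). At least 5 were present in 0 of 963 control cells, which allows up to 0.382%, and in 11 SP11 cells (1.43%, 0.716% to 2.54%). These values compare 1 library with 1 library.

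The top 10% of the control library by the same score, 97 cells against 866, differed little from the rest in interferon-stimulated genes outside the rule. Its marker level was 194 CPM, with 144 CPM in the lowest cell, against 702 and 320 CPM in SP11 members. That lay between the next 10% of SP11 cells (238 CPM) and the 10% after it (171 CPM), so the top sets are not at like marker levels. In the control comparison, 8855 genes were measured, of which 83 (0.937%) exceeded the rest by 1.5-fold or more and 138 (1.56%) were below it by as much. None of the 27 measured interferon-stimulated genes outside the rule was among the higher ones, their median log2 ratio was 0.05, and their sum was 1993 and 1850 CPM (0.11, 0.06 to 0.16). DDX60L, a helicase-related gene, had the highest control ratio of the list at 0.51, followed by HERC5 at 0.47. Some myeloid genes stood out in the control top 10% too: S100A8 had a log2 ratio of 4.03, from 59 and 37 UMIs and so under the minimum of 200, S100A9 2.94, MMP1 2.06 and CXCL8 3.64. Their lists differed less, with 1 of 6 measured S100 genes (median 0.24) and 2 of 6 macrophage-associated genes (median 0.36) at least 1.5-fold higher, beside 0.937%. Of 5977 genes measured in both libraries, 157 were at least 1.5-fold higher in SP11 members, 30 in the control top 10% and 20 in both, which is 12.7% of the former and 66.7% of the latter. Those 20 included S100A9, TYROBP, LYZ, MMP1, FUCA1, SAMSN1, CHI3L1, FTH1, SOD2, CXCL8 and CCL2. No gene of the interferon-stimulated list was among them, but they were only 20 of the 5977 genes. Over the 5977 genes, which are not independent, Spearman's rho between the ratios in both libraries was 0.17.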

How the data were processed

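The authors deposited 1 matrix of raw UMI counts per gene and barcode for each library, made with Cell Ranger 7.1.0 (per the file headers) on hg38 (GRCh38 in the submitters' processing notes), with 36601 genes and filtered barcodes. The authors did not normalize these counts. No column of another sample was present in the matrices (0 unused).

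Here, barcodes were filtered as in the report, leaving 963 of 1076 control and 769 of 864 SP11 barcodes with 19259739 and 9314743 UMIs. Counts were summed over members and over the rest and divided by total UMIs (CPM). Poisson intervals for levels, Clopper-Pearson intervals for ratios (from the split of a gene's UMIs) and for shares were exact, at 95%, and cover counting error only. Under 200 UMIs a gene was not measured. The ratio code was tested on simulated data. A count of 0 allows 3 counts. Doublets were called with Scrublet in scanpy 1.11.5. Size factors of DESeq2 1.42.0 and TMM factors of edgeR 4.0.16 served only as other scalings of the summed counts, with no test. Python 3.11.15, scipy 1.17.1 and R 4.3.3 were used. Promoter windows came from RefSeq (GRCh38.p14) and were matched by symbol.

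Named genes were the markers, the measured genes of the interferon lists, the 10 highest (with at least 50 UMIs in members) and 10 lowest ratios, and up to 2 genes from each end of every other list. Some of these genes are not reported here. Further genes were named after their values were seen. The members and all gene lists were chosen with earlier results of these data known. Lists not described in the report are given at the end of the closing section. Alternatives covered scaling, cell weights, filters, doublets, the member share and the score.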

Additional observations from a re-analysis of the deposited data

Results flagged for a closer look

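Gene lists whose summed level differed in direction between the top 10% of the SP11 cells and the top 10% of the control cells were marked for a closer look, and neither difference was tested, since each group had 1 library. Replication-dependent histones had a log2 ratio of 0.61 in SP11 and -0.26 in Control. In SP11 the per-cell medians of this list were 442 CPM in members and 472 CPM in the rest. Granule protease genes had -0.088 in SP11 and 0.11 in Control.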

How the results depend on the processing

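Of the 5 main results, the count of genes at least 1.5-fold higher (167) and lower (243), the median log2 ratio of interferon-stimulated genes outside the rule (0.38), their number at least 1.5-fold higher (5) and the control share at the threshold (0.623%), the gene minimum, the size of the top set and the split by macrophage-associated and S100 genes moved the counts by over 1.5 times. With 50 UMIs the values were 567, 828, 0.51 and 14, and with 500 UMIs the counts were 74, 49 and 3. In the top 5% of cells they were 297, 544, 0.59, 11 and 0.208%, and in the top 20% they were 106, 77 and 0.22 with a share of 3.43%. The median was 0.31 with equal weight for every cell, 0.29 with a mean log-normalized score and 0.29 without the member with the highest score. The control share was 3.32% with a score without IFI6 and 2.91% with thinned counts. In the added split by macrophage-associated and S100 genes, 75 genes were higher outside the top 10%, and inside it 19 were higher and 4 lower, with a median of 0.62 over 2 measured genes and 1 higher. No setting turned the direction of the median. TMM and DESeq2 factors, totals without mitochondrial and marker genes, 8000 UMIs, a 10% mitochondrial maximum, removal of Scrublet calls, scores without CXCL10 or ISG15 and removal of shared barcodes moved no count by over 1.5 times, and kept the median within the counting error of the summed list and the share within its binomial interval. That interval is wide: the share was 0.312% without ISG15 and 1.14% with the mean log-normalized score. Of 118 genes taken by the naming rule and reported, 4 that differed by at least 1.5-fold turned: TDO2 (-0.49), HMOX1 (-1.01) and BCL2A1 (-0.036) outside the macrophage and S100 top 10%, and HIST1H4C (-0.13) in the top 5%, and the cause was not tested. The values of TDO2 and HMOX1 rest on 1 and 3 member UMIs. Another 35, all under 1.5-fold, changed sign under at least 1 setting, among them HERC5, from 0.35 to -0.075 without the highest member. No paired analysis was possible because each group has 1 library and no test was run. Depth limits single markers: a member had a median of 6 marker UMIs, so that 5 of the 7 markers rest on 45 UMIs or fewer in all members.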

Other observations

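Members were also described by lists not yet named. For S phase genes, 24 were measured, none was at least 1.5-fold higher and 1 was lower, near the 2.78% and 4.05% of all genes. Their median log2 ratio was -0.10, with UNG, which removes uracil from DNA, at the lower end at -0.59. Outside the top 10% of cells by macrophage-associated and S100 genes this median was 0.13. The 9 measured genes of the integrated stress response had a median of -0.07, with PSAT1 at -0.46 and HSPA5 at 0.14, and 27 cytosolic ribosomal protein and elongation factor genes had -0.11. The 10 glycolysis and hypoxia genes had 0.02, with ALDOA at 0.47 (-0.13 to 1.02). Of 12 measured genes of the p53 and apoptosis list, 2 were at least 1.5-fold higher and 1 was lower, beside 2.78% and 4.05% of all genes, and the inflammatory caspase CASP4 had 0.73 (0.18 to 1.25). Of the other chemokine and cytokine genes 2 were measured, CCL2 and CCL5.

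Genes of other blood cell types gave small sums. Plasmacytoid dendritic cell markers, a cell type known for making interferon, had 68.6 CPM in members and 68.2 CPM in the rest. IRF8, a factor of that lineage, had a log2 ratio of -0.01 (-0.71 to 0.63) and TCF4 had 0.01 (-0.62 to 0.59). B cell markers had 29.5 and 26.7 CPM, and natural killer cell markers had 265 and 229 CPM, of which NKG7, a granule membrane protein, made up 261 and 227 CPM.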
